A study of Mus musculus with 15 samples.

Results

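Tgm1, Tgm2, Tgm3, Tgm5, Evpl and Ppl were followed by RNA-seq in the epidermis and tongue of newborn mice. These 6 of the 23420 mouse genes in the count table were chosen by name: 4 transglutaminases and 2 plakins that transglutaminases crosslink. There were 4 groups of mice at postnatal day 1: wild-type epidermis (3 libraries), knockout epidermis (4), wild-type tongue (4) and knockout tongue (4). The knockout mice lacked the HAT/DESC proteases, a family of membrane-anchored serine proteases encoded by Tmprss11a to Tmprss11g. All libraries, wild type and knockout, carry the same strain label, which lists the Tmprss11 genes by their letters. Epidermis had been lifted off the dermis after heating in EDTA, whereas tongue was not separated into layers. The sample descriptions carry a number that recurs across tissues of a genotype and was read as the animal, by which 2 wild-type and 4 knockout animals gave both tissues and 3 wild-type animals gave 1 tissue each.

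The cornified envelope is the insoluble shell that replaces the plasma membrane of keratinocytes when they die at the surface of a stratified epithelium. Envoplakin (Evpl) and periplakin (Ppl) bind each other under the membrane and form an early scaffold, onto which transglutaminases weld involucrin, loricrin and small proline-rich proteins through bonds between glutamine and lysine side chains. Tgm1 is the membrane-anchored enzyme of this process, Tgm3 and Tgm5 are soluble enzymes of differentiating keratinocytes, and Tgm2, tissue transglutaminase, is best known from endothelium, connective tissue and matrix. In epidermis the envelope is coated with ceramides and closes the skin barrier, while the tongue bears an oral epithelium above a thick body of muscle.

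The 4 enzymes share a papain-like catalytic cysteine, and the coding bases around it are shown because this site is common to enzymes whose levels differed widely. Each line holds 45 bases of the coding strand of the GENCODE M21 transcript (build GRCm38), 5′ to 3′, with the cysteine codon in capitals.
Tgm1: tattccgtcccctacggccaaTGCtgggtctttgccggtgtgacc
Tgm2: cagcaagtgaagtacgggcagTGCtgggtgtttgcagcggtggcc
Tgm3: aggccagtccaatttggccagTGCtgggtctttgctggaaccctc
Tgm5: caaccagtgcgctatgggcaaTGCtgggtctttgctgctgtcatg
These windows lie at chr14:55709401-55709445 (minus strand, exon 7 of 15), chr2:158131338-158131382 (minus strand, exon 6 of 13), chr2:130029751-130029795 (plus strand, exon 6 of 13) and chr2:121070739-121070783 (minus strand, exon 6 of 13), in that order. The cysteine is codon 376 in Tgm1, 277 in Tgm2, 273 in Tgm3 and 283 in Tgm5. Between pairs of the 4 windows 27 to 32 of 45 bases were the same, with Tgm1 and Tgm5 the closest pair and Tgm2 and Tgm3 the least alike. Over the whole aligned coding sequence the identity ran from 60.4% (Tgm2 and Tgm3) to 64.6% (Tgm1 and Tgm5). Evpl and Ppl were 61.9% identical over 5059 aligned coding bases.

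On GRCm38, Tgm1 occupies chromosome 14 from 55700009 to 55713926 and Evpl chromosome 11 from 116220559 to 116238077. Ppl lies on chromosome 16 from 5086291 to 5132421. Tgm2, Tgm3 and Tgm5 are all on chromosome 2, at 158116402 to 158146436, 130012349 to 130050399 and 121046111 to 121085841, and Tgm7 is the neighbour of Tgm5 at 121093565 to 121109795. The plakins are long and rich in glutamine, the amino acid on which transglutaminases act first: 9.78% of the 2035 codons of Evpl and 9.35% of the 1754 codons of Ppl encode it. The median over 17053 coding genes was 4.47%, which puts Evpl at the 98.6 and Ppl at the 98.2 percentile mark. The enzymes themselves had 3.44% (Tgm1), 3.5% (Tgm2), 3.61% (Tgm3) and 5.53% (Tgm5).

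Tgm1 and Tgm3 changed places between the tissues in the data below, so their promoter windows are given as well, as the 250 bases before the RefSeq start on GRCm38.p6. They span chr14:55713493-55713742 (minus strand) and chr2:130012090-130012339 (plus strand), and capitals mark matches to the motifs searched.
Tgm1: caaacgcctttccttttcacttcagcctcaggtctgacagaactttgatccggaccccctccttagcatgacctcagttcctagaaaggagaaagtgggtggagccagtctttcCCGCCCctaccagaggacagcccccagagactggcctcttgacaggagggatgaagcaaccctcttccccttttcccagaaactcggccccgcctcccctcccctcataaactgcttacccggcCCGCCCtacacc
Tgm3: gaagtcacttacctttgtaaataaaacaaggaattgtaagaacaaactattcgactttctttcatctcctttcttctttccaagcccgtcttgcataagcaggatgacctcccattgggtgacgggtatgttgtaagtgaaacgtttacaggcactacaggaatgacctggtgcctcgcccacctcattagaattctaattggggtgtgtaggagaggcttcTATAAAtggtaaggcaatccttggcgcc
Matches were sought on both strands for 4 motifs, none of which overlapped another in these windows. The TATA box was searched as TATAAA and the GC box as GGGCGG. The site of Grainyhead-like factors was searched as AACCGGT. The site of AP-1, searched with any base in its middle, was spelled TGANTCA. Tgm1 had 2 GC boxes, read on the opposite strand and beginning 136 and 12 bases before the start. Tgm3 had 1 TATA box, beginning 28 bases before it. These distances count from the RefSeq starts, which differ from the GENCODE gene starts. The Tgm1 window lies inside the GENCODE span of its gene, which begins at 55713926 on the minus strand. In GENCODE Tgm3 begins at 130012349. A second start of Tgm1 and the single start of Tgm5 held none of the 4. Among 32851 promoter windows of this length 32.7% held a GC box, 12.4% the TATA letters, 6.75% the AP-1 letters and 0.831% the Grainyhead-like letters.

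The libraries held 10117819 to 17819195 counted reads. Mitochondrial ribosomal RNA took 20.1% to 23.8% of the reads in epidermis, except in wild-type epidermis 1, where it took 44.6%, and 35.5% to 40.8% in tongue. That library stood apart, and it is named beside some of the values that rest on it. The summed level of the 6 targeted genes found in the table, in CPM (reads of a gene per 1e6 counted reads, scaled over all 15 libraries), was 350 to 388 in wild-type tongue and 136 to 151 in knockout tongue, where Tmprss11a and Tmprss11b passed the test. In epidermis it was 237 to 310 in wild type and 109 to 251 in knockout, with an overlap and with no targeted gene past the test, so the knockout libraries still held reads of these genes. Markers of the labelled tissues were present: the 7 suprabasal epidermis genes, among them Krt1, Krt10 and Lor, summed to 30571 to 57463 CPM in epidermis and 490 to 770 CPM in tongue. The 6 oral epithelium genes, among them Krt4 and Krt13, summed to 52.9 to 465 CPM in epidermis and 6111 to 9728 CPM in tongue.

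The tissue was the main axis of variation of these genes. In wild type, epidermis had more Tgm1 (4.05-fold), Evpl (4.79-fold), Ppl (4.39-fold) and Tgm5 (1.76-fold) in CPM than tongue, while Tgm2 was 89.3-fold lower and Tgm3 did not pass the test. In the knockout 4 members were again higher and Tgm2 lower, and Tgm3 was also called lower. Of the 6 members 5 passed edgeR's quasi-likelihood test at a Benjamini-Hochberg adjusted p under 0.05 in wild type, where 63.6% of the 16577 genes tested passed, and 6 passed in the knockout, where 63.8% of 16398 did. A call between these tissues was thus the common case among all genes. The same holds for groups without overlap in CPM: 5 of 6 members in each genotype, beside 65.7% of all genes tested in wild type and 58.5% in the knockout. The members' median log2 fold change was 1.42 in wild type and 1.41 in the knockout, beside 0.03 and 0.07 over all genes tested. These are whole-tissue extracts, so fewer cells of a type and less RNA per cell cannot be told apart.

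**Figure D1:**
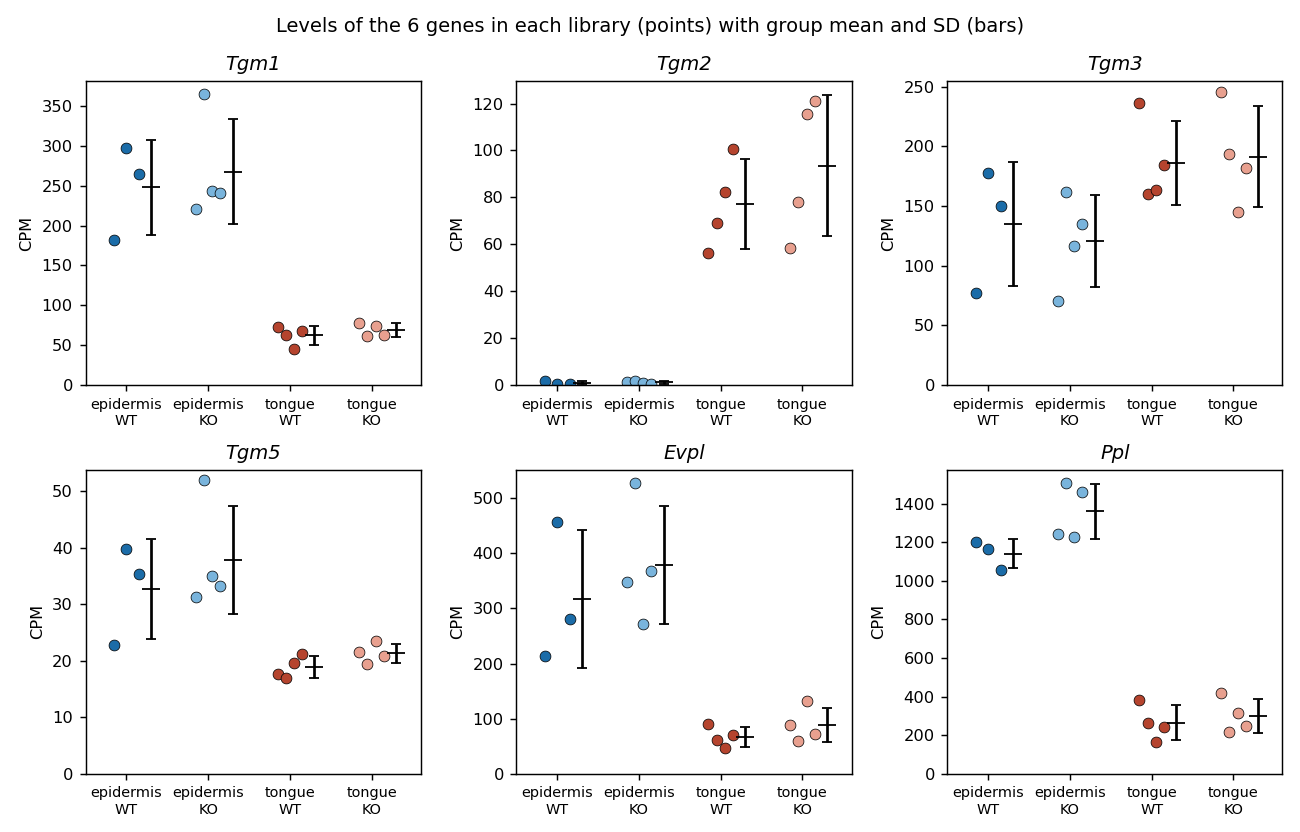
Level of each gene in CPM (linear axes from 0), with 1 point a library and the group mean ± SD beside it. Points of Tgm1, Tgm5, Evpl and Ppl lie higher in epidermis than in tongue, those of Tgm2 lie near 0 in epidermis, and those of Tgm3 overlap.

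Tgm1, the membrane-anchored envelope enzyme, stood at 182, 298 and 265 CPM in wild-type epidermis and at 221, 365, 243 and 241 CPM in knockout epidermis. In tongue it stood at 73.0, 62.2, 45.3 and 68.1 CPM in wild type and at 78.4, 61.0, 74.3 and 62.2 CPM in the knockout. Every epidermis library was above every tongue library. The log2 fold change of epidermis against tongue was 2.02 (SE 0.22, edgeR adjusted p = 3.83e-05) in wild type and 1.98 (SE 0.18, edgeR adjusted p = 2.14e-06) in the knockout. An antisense gene, Gm49067, shares 182 bases of exon with Tgm1, and reads of the 2 strands could not be told apart.

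Tgm5, the soluble enzyme whose loss causes peeling of the skin of hands and feet in people, was the lowest of the 3 keratinocyte enzymes per kilobase. Its levels were 22.7, 39.8 and 35.4 CPM in wild-type epidermis and 31.2, 52.0, 35 and 33.2 CPM in knockout epidermis. Tongue held 17.7, 17.0, 19.6 and 21.2 CPM in wild type and 21.5, 19.5, 23.4 and 20.8 CPM in the knockout. The tissues did not overlap within a genotype; the closest pair was wild-type epidermis 1 and wild-type tongue 4. The log2 fold change was 0.81 (SE 0.19, edgeR adjusted p = 0.00474) in wild type and 0.85 (SE 0.18, edgeR adjusted p = 0.00118) in the knockout, the smallest of the 4 higher members.

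Tgm3, the enzyme of hair follicles and upper epidermal layers that is activated by proteolysis, was the only member whose tissues overlapped. It stood at 77.2, 178 and 150 CPM in wild-type epidermis and at 70.2, 162, 117 and 135 CPM in knockout epidermis. In tongue it stood at 237, 160, 164 and 184 CPM in wild type and at 246, 194, 145 and 182 CPM in the knockout. The lowest values in epidermis belonged to wild-type 1 and knockout 1. In wild type the log2 fold change was -0.44 (SE 0.27, 95% interval -1.06 to 0.17, edgeR adjusted p = 0.181). That value ran from -0.71 without wild-type epidermis 2 to -0.08 with the animal as a replicate block (edgeR adjusted p = 0.0671 and 0.704), and it was -0.17 without wild-type epidermis 1, -0.10 within the animals of the higher number range alone (wild-type epidermis 2 and 3 and replicates 3 and 4 of the other groups) and -0.20 without a scaling factor. In the knockout it was -0.64 (SE 0.24, 95% interval -1.17 to -0.12, edgeR adjusted p = 0.0343), a call that was lost with the animal as a replicate block (adjusted p = 0.053), without a scaling factor (0.0958), within replicates 3 and 4 of both tissues alone (0.0949) and without any 1 of 5 libraries. Those 5 were epidermis knockout 1 (0.0643) and 3 (0.0681) and tongue knockout 1 (0.106), 2 (0.0638) and 4 (0.0506).

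Tgm2, tissue transglutaminase, ran the other way. In epidermis it was close to the limit of counting, with 7 to 26 reads a library: 1.80, 0.616 and 0.513 CPM in wild type and 1.36, 1.74, 0.862 and 0.392 CPM in the knockout. Tongue held 56.2, 69.1, 82.2 and 101 CPM in wild type and 58.6, 78.2, 115 and 121 CPM in the knockout. The log2 fold change was -6.48 (SE 0.42, edgeR adjusted p = 1.55e-06) in wild type and -6.43 (SE 0.39, edgeR adjusted p = 9.34e-08) in the knockout, where the level was 86.0-fold lower in epidermis. Exons of Tgm2 share 370 bases with Rprd1b and 633 bases with Gm20412 on the opposite strand, and Rprd1b stood at 27.1 to 33.2 CPM in epidermis. How many of the few epidermal reads came from those genes cannot be told apart from these counts.

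Markers of cell types that lifted epidermis should lack moved in the same direction as Tgm2. The 6 endothelium genes summed to 2.10 to 8.71 CPM in epidermis and 296 to 452 CPM in tongue, with Pecam1 at 0.841 to 2.57 CPM and 111 to 159 CPM. The 6 fibroblast genes summed to 132 to 430 CPM and 4887 to 6178 CPM, with Col1a1 at 15.4 to 61.6 CPM and 465 to 906 CPM. The 8 skeletal muscle genes summed to 84.0 to 682 CPM and 25359 to 48773 CPM, with Acta1 at 5.40 to 65.8 CPM and 2760 to 5007 CPM. None of these defining markers was at 0 in any group, and their part in the Tgm2 difference was not tested. Macrophage genes differed less, at 58.7 to 89.3 CPM in epidermis and 138 to 193 CPM in tongue, with Csf1r at 22.2 to 33.0 CPM and 22.8 to 42.4 CPM.

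The plakins moved with Tgm1. Evpl, envoplakin, stood at 214, 456 and 280 CPM in wild-type epidermis and at 348, 528, 271 and 368 CPM in knockout epidermis. In tongue it stood at 90.3, 60.6, 46.1 and 70.9 CPM in wild type and at 88.3, 59.4, 132 and 72.9 CPM in the knockout. All epidermis libraries were above all tongue libraries. Its log2 fold change was 2.26 (SE 0.29, edgeR adjusted p = 0.000132) in wild type and 2.12 (SE 0.27, edgeR adjusted p = 2.72e-05) in the knockout.

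Ppl, periplakin, also binds intermediate filaments. It stood at 1199.5, 1167 and 1058 CPM in wild-type epidermis and at 1243, 1509.7, 1229 and 1459.6 CPM in knockout epidermis. Tongue held 385, 263, 166 and 244 CPM in wild type and 419, 218, 314 and 245 CPM in the knockout. The tissues were far apart, and the wild-type epidermis libraries were closer to one another (SD 6.49% of the mean) than for any other member. The log2 fold change was 2.13 (SE 0.27, edgeR adjusted p = 0.000122) in wild type and 2.21 (SE 0.24, edgeR adjusted p = 7.37e-06) in the knockout. Without a scaling factor the median of all genes shifted by 0.18 in wild type and 0.24 in the knockout, and no member changed direction. Tgm3 went from -0.44 to -0.20 in wild type and from -0.64 to -0.43 in the knockout, where its call was lost.

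**Figure D2:**
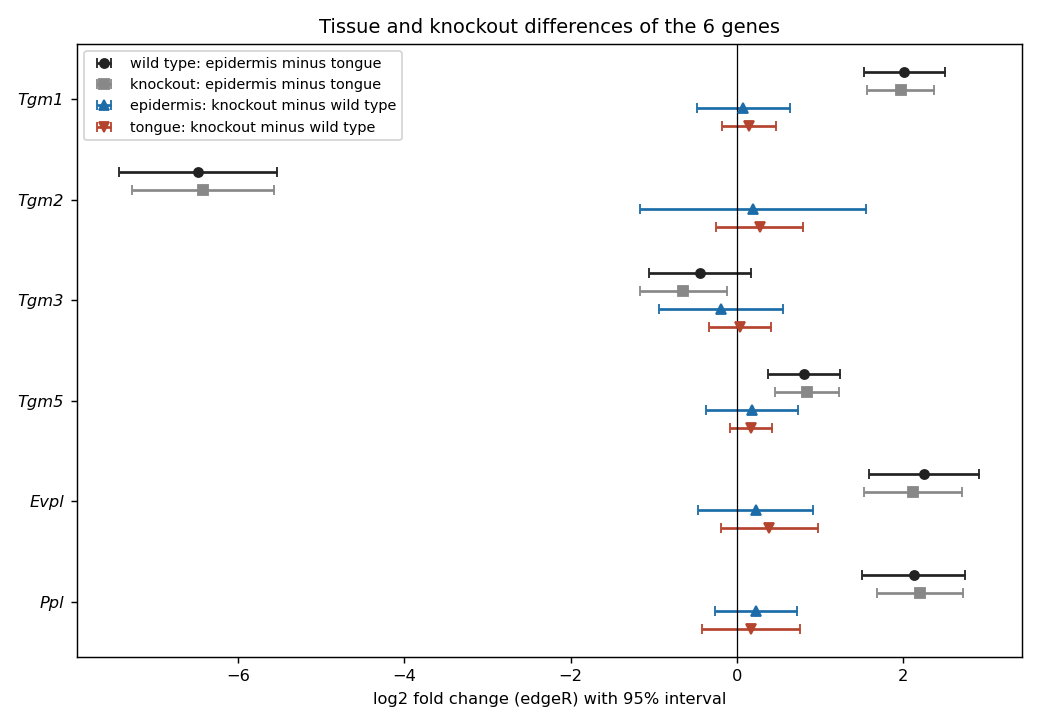
Log2 fold change (points) and 95% interval (bars) of each gene in 4 comparisons fitted with edgeR. The tissue intervals of Tgm1, Tgm5, Evpl and Ppl lie above 0 and those of Tgm2 below it. That of Tgm3 crosses 0 in wild type and lies below it in the knockout. Every interval of knockout against wild type crosses 0.

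The same directions held within animals. In the 6 animals that gave both tissues, the log2 ratio of epidermis to tongue was 1.5 to 2.71 for Tgm1, 0.54 to 1.42 for Tgm5, 1.04 to 3.31 for Evpl and 1.57 to 2.81 for Ppl, above 0 in 6 of 6. For Tgm2 it was below 0 in 6 of 6, from -8.27 to -5.43. For Tgm3 it was below 0 in 5 of 6 and 0.12 in the other, the animal of wild-type epidermis 2 and wild-type tongue 3. The animal of knockout epidermis 1 and knockout tongue 1 had the lowest value for Tgm3, -1.81, and the lowest for Tgm1, Tgm5 and Ppl too.

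Per kilobase of exon union, which allows genes to be compared, the order of the group means was the same in both genotypes of a tissue. It differed between tissues. In wild-type epidermis Ppl led at 166 ± 10.8 CPM per kb (SD, n = 3), followed by Tgm1 (78.5 ± 18.8), Evpl (49.6 ± 19.6), Tgm3 (32.7 ± 12.6), Tgm5 (10.3 ± 2.81) and Tgm2 (0.212 ± 0.155). The ranges of Tgm1 and Evpl overlapped, as did those of Evpl and Tgm3. In knockout epidermis the levels were 197 ± 21.0 for Ppl, 84.6 ± 20.8 for Tgm1, 59.3 ± 16.9 for Evpl, 29.3 ± 9.33 for Tgm3, 12 ± 3.03 for Tgm5 and 0.237 ± 0.128 for Tgm2 (SD, n = 4), and there the ranges of Tgm1 and Evpl overlapped.

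In tongue Tgm3 had the highest mean on this length. Wild-type tongue held 45.0 ± 8.54 CPM per kb of Tgm3, 38.4 ± 13.1 of Ppl, 19.7 ± 3.81 of Tgm1, 16.7 ± 4.13 of Tgm2, 10.5 ± 2.91 of Evpl and 5.98 ± 0.601 of Tgm5 (SD, n = 4). Knockout tongue held 46.3 ± 10.1 of Tgm3, 43.4 ± 13 of Ppl, 21.8 ± 2.73 of Tgm1, 20.3 ± 6.52 of Tgm2, 13.8 ± 4.91 of Evpl and 6.75 ± 0.517 of Tgm5 (SD, n = 4). In both genotypes the ranges of Tgm3 and Ppl, of Tgm1 and Tgm2 and of Tgm2 and Evpl overlapped, so only the steps from Ppl to Tgm1 and from Evpl to Tgm5 were free of overlap. By library, Tgm3 was above Ppl in 4 of 4 of wild-type and 2 of 4 of knockout tongue. Tgm1 was above Tgm2 in 2 of 4 in each genotype. The order was not computed on the longest transcripts, which are shorter than the exon union for Ppl (6217 and 6893 bases) and Tgm2 (3596 and 4608). For Tgm3 the 2 lengths are the same.

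Taking the 4 transglutaminases as a pool of length-scaled level shows a change in its makeup. Tgm1 made up 65.1% ± 3.16 of the pool in wild-type epidermis (SD, n = 3) and 22.4% ± 2.83 in wild-type tongue (SD, n = 4), and 67.3% ± 3.5 and 22.9% ± 2.41 in the knockout (SD, n = 4 each). Tgm3 made up 26.2% ± 3.45 and 51.3% ± 4.91 in wild type and 23.0% ± 4.13 and 48.4% ± 8.23 in the knockout. Tgm2 went from 0.213% ± 0.219 to 19.4% ± 4.99 in wild type and from 0.189% ± 0.0983 to 21.5% ± 7.34 in the knockout. Tgm5 kept a small share throughout, 8.51% ± 0.0854 and 6.91% ± 0.932 in wild type and 9.54% ± 0.558 and 7.12% ± 0.707 in the knockout. The tissues did not overlap for any of the 4 shares in either genotype.

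The exact two-sided permutation test gave each of these tissue comparisons the smallest p it can give, 0.0571 with 3 against 4 libraries and 0.0286 with 4 against 4. After adjustment over the 16 comparisons of shares all were at 0.102. None could have passed, since the smallest adjusted value that these group sizes allow is 0.0571. A share of 1 gene moves with the others by construction. The share of Tgm5 in epidermis was also without overlap between genotypes, at 8.42% to 8.59% in wild type and 8.82% to 10.2% in the knockout (exact permutation p = 0.0571, adjusted 0.102). Every other share overlapped between genotypes in both tissues, and so did the CPM of Tgm5 in epidermis. No background of other genes was computed for shares, so this case does not set Tgm5 apart.

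**Figure D3:**
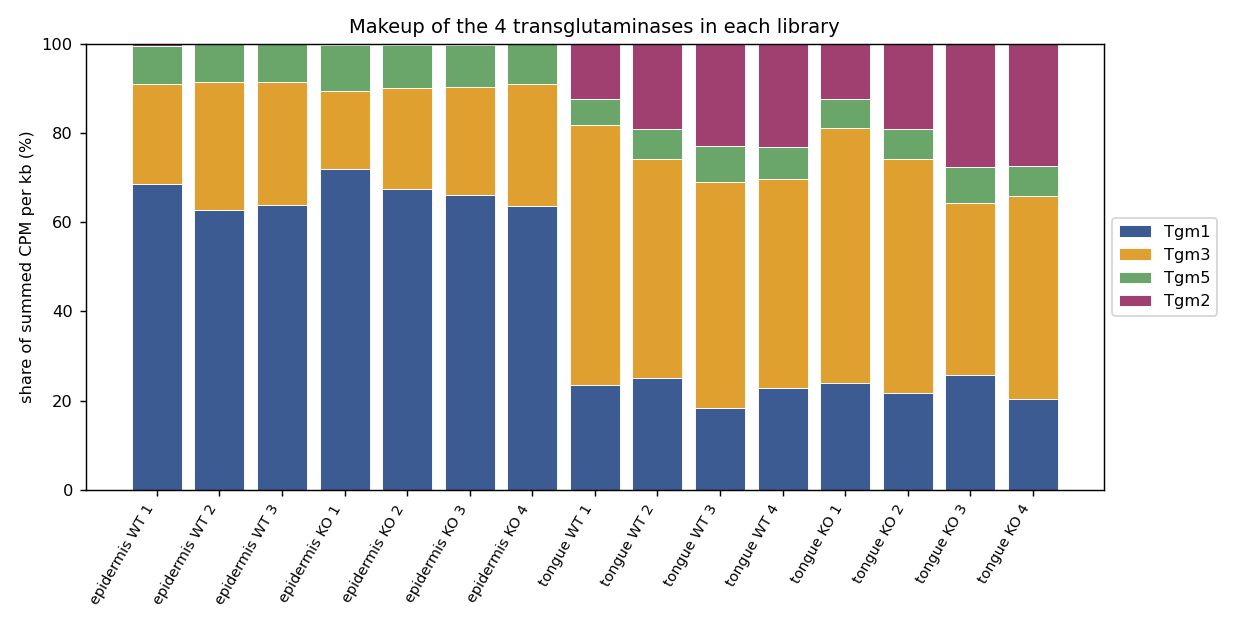
Share of each transglutaminase in the summed CPM per kb of the 4 enzymes, 1 bar a library. Tgm1 fills 62.8% to 72.0% of each epidermis bar and 18.4% to 25.8% of each tongue bar, and Tgm2 stays at or below 0.466% of each epidermis bar.

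Lifted epidermis is mostly stratified epithelium and whole tongue is not, so each member was also set against 7 genes of stratified epithelium (Krt5, Krt14, Trp63, Cdh1, Dsp, Jup and Perp). These 7 were all called higher in epidermis, beside 32% of all genes in wild type and 32.7% in the knockout. The median log2 fold change of the 7 was 2.57 in wild type and 2.59 in the knockout. Their summed level was 7311 to 15892 CPM in epidermis and 2468 to 3553 CPM in tongue, lowest among epidermis libraries in wild-type 1. Krt5, the keratin of basal cells, ran from 1463 to 2592 CPM in epidermis and from 203 to 303 CPM in tongue.

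Relative to the geometric mean of these genes the members split into sets. Tgm1, Evpl and Ppl differed least between the tissues, by a log2 difference of epidermis and tongue of -0.15, 0.07 and 0.03 in wild type. In the knockout it was -0.47, -0.28 and -0.18, and the libraries overlapped in all 6 cases. For Tgm1 in the knockout the overlap rested on knockout epidermis 2 (-1.95). The other knockout epidermis libraries were at -2.36, -2.54 and -2.58, below the knockout tongue range of -2.02 to -1.80. For Ppl the wild-type difference was -0.32 without wild-type epidermis 1. Tgm5 was lower in epidermis on this scale, by a log2 difference of -1.39 in wild type and -1.60 in the knockout, although its CPM was higher there. Tgm3 was lower by -2.67 and -3.11 and Tgm2 by -8.65 and -8.97. A gene with equal CPM in both tissues also falls lower in epidermis on this scale, by construction. The reference genes were higher there by medians of 2.57 and 2.59, beside 0.03 and 0.07 over all genes tested. No background of other genes was computed on this scale, so a lower value does not set a member apart from them. For Tgm3 the wild-type values were -3.18, -3.04 and -3.04 in epidermis and -0.26, -0.57, -0.40 and -0.42 in tongue. Its knockout values were -4.01, -3.13, -3.60 and -3.41 in epidermis and -0.15, -0.21, -1.06 and -0.30 in tongue.

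The tissues did not overlap for Tgm2, Tgm3 or Tgm5 in either genotype. Each of these 6 comparisons had the smallest exact permutation p possible (0.0571 in wild type, 0.0286 in the knockout), and the smallest adjusted value over the 24 comparisons was 0.196. Here too 0.0571 is the smallest that could be reached, so the test says nothing on whether Tgm1, Evpl and Ppl kept pace with the epithelium genes. Their small differences turned with the choice of reference: against Krt5 and Krt14 alone the wild-type difference was -0.48 for Evpl and -0.52 for Ppl, and without those 2 keratins it was 0.07 for Tgm1.

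**Figure D4:**
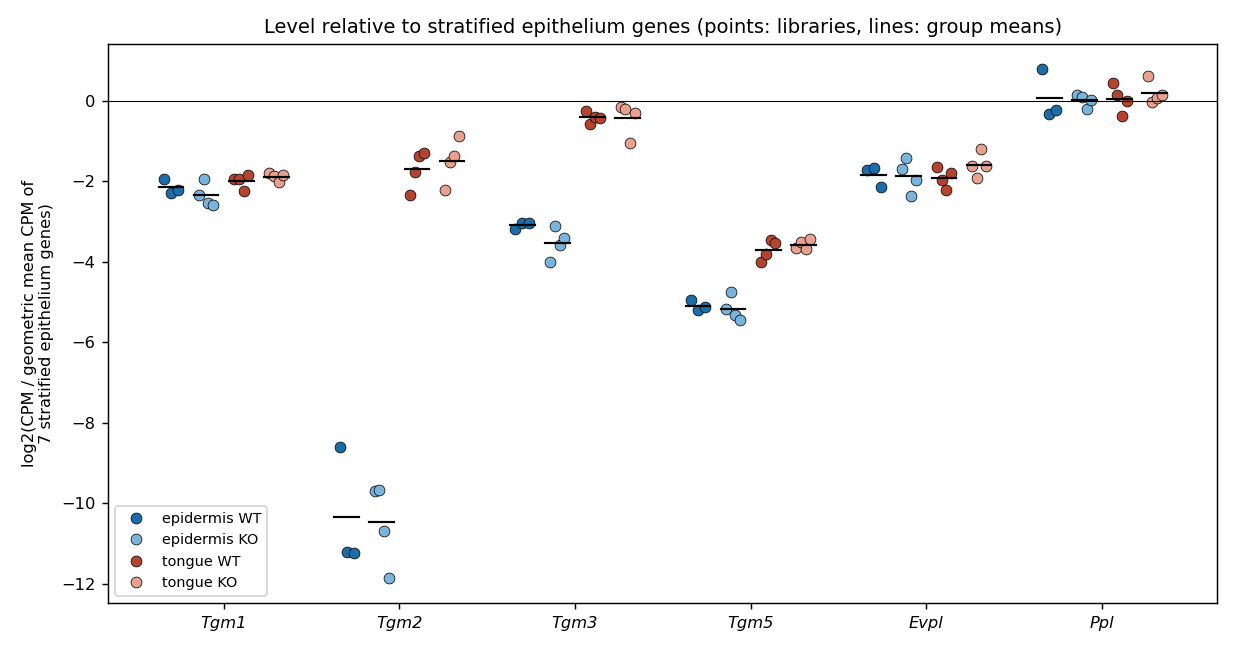
Log2 ratio of each gene's CPM to the geometric mean CPM of 7 stratified epithelium genes, with 1 point a library and lines at group means. Tgm1, Evpl and Ppl lie at overlapping heights in both tissues, whereas Tgm2, Tgm3 and Tgm5 lie lower in epidermis.

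The log2 ratio of Evpl CPM to Ppl CPM was -2.49, -1.35 and -1.92 in wild-type epidermis and -1.84, -1.52, -2.18 and -1.99 in knockout epidermis. In tongue it was -2.09, -2.12, -1.85 and -1.78 in wild type and -2.25, -1.87, -1.25 and -1.75 in the knockout. Every library held less Evpl than Ppl, from 0.178 (wild-type epidermis 1) to 0.419 (knockout tongue 3) times as much. The group means were -1.92 ± 0.57 (SD, n = 3), -1.88 ± 0.28, -1.96 ± 0.17 and -1.78 ± 0.41 (SD, n = 4), and the libraries overlapped in all 4 comparisons (exact permutation test, adjusted p = 0.914 in each, where 0.0571 is the smallest possible). The spread within groups was wide, and within the animals of the higher number range alone the difference of medians was -0.45 for the knockout in epidermis and -0.58 for epidermis against tongue in the knockout.

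The knockout of the proteases changed none of the 6 genes past the test. In epidermis edgeR called 0% of 16073 genes (187 had an unadjusted p under 0.05, and DESeq2 called 1), and in tongue it called 0.0127% of 15741 genes, both of them targeted genes. Within the animals of the higher number range alone it called 604 genes in epidermis and 15 in tongue, with no member among them. The log2 fold changes of knockout against wild type in epidermis were 0.08 for Tgm1 (95% interval -0.48 to 0.64), 0.19 for Tgm2 (-1.17 to 1.55), -0.19 for Tgm3 (-0.93 to 0.56), 0.18 for Tgm5 (-0.37 to 0.74), 0.23 for Evpl (-0.46 to 0.92) and 0.23 for Ppl (-0.27 to 0.72), with an adjusted p of 1 for each. As folds, the upper ends of these intervals ran from 1.47 (Tgm3) to 2.94 (Tgm2), and the wild-type difference between the tissues lay outside the interval for every member but Tgm3.

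In tongue the changes were 0.15 for Tgm1 (-0.18 to 0.48), 0.28 for Tgm2 (-0.25 to 0.80), 0.04 for Tgm3 (-0.33 to 0.41), 0.17 for Tgm5 (-0.09 to 0.43), 0.40 for Evpl (-0.19 to 0.98) and 0.18 for Ppl (-0.41 to 0.77), with edgeR adjusted p from 0.939 to 0.976. All were above 0, as were 51.8% of all genes tested, with a median of 0.17 beside 0.01 over all genes. In epidermis 5 of 6 were above 0, as were 50.2% of all genes, with a median of 0.19 beside 0.00129. This was not particular to the members: 13 of 13 desmosome genes and 4 of 4 other plakins also lay above 0 in each tissue, none called. Of the stratified epithelium genes 6 of 7 did in epidermis and 5 of 7 in tongue. Substrates differed, with 35 of 47 above 0 in epidermis and 8 of 40 in tongue. The knockout comparisons of the 2 tissues share no library, although 6 animals entered both.

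Ppl was the member whose epidermis libraries did not overlap between genotypes: 1058 to 1199.5 CPM in wild type and 1229 to 1509.7 CPM in the knockout. Of all genes tested in epidermis 2.20% had groups without overlap, and in tongue, where 0 of 6 members did, 2.29%. The difference of the knockout effects between tissues ran from -0.20 (Tgm3) to 0.08 (Ppl) over the members, with an adjusted p of 1 for each, and 0% of 17935 genes were called (299 with an unadjusted p under 0.05, and 1 by DESeq2). In knockout epidermis the 8 muscle genes lay above 0 with a median log2 fold change of 1.08, none called, and their sum reached 682 CPM in knockout 2. That library was also the highest of its group for all 6 members, and without it no member was called either.

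Of the 5 other transglutaminase family genes 3 were tested in wild type and 4 in the knockout. In wild type Tgm7 (log2 fold change -3.48), F13a1 (-2.99), which encodes the catalytic chain of clotting factor XIII, and Tgm6 (-1.68) were called lower in epidermis, where 31.6% of all genes were. In the knockout Tgm7 (-3.13) and F13a1 (-2.81) were called lower, Epb42 (1.10), a catalytically inactive member of red cell membranes, was called higher, and Tgm6 (-0.62, adjusted p = 0.409) was not called, where 31.1% of all genes were called lower and 32.7% higher. So few genes allow no reading against these shares. Tgm4, the prostate enzyme, had 0 to 6 reads a library and was not tested. Except for F13a1 in tongue (50.6 ± 10.1 CPM in wild type and 57.1 ± 12.1 in the knockout, SD, n = 4), these genes stayed at group means of 10.5 CPM or less.

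Of the 4 other plakins tested 3 were called higher in epidermis in each genotype, like Evpl and Ppl, and 1 was not called. Of all genes 32% were called higher in wild type and 32.7% in the knockout. Dsp, desmoplakin, which anchors keratin to desmosomes, was higher in epidermis by 1.85 on the log2 scale in wild type and 1.98 in the knockout. Dst, which links keratin to hemidesmosomes in its epithelial form, was higher by 1.16 and 1.19, and Plec, plectin, by 1.04 and 0.92. Macf1, the cytoskeletal crosslinker, was not called (-0.16 and -0.21, adjusted p = 0.481 and 0.433). Per kilobase of exon union Dsp stood at 506 ± 172 CPM in wild-type epidermis (SD, n = 3), above Ppl. On that length Dst (32.4 ± 5.03), Macf1 (25.0 ± 0.356) and Plec (22.5 ± 9.42) stood below Evpl. The place of Dst depends on the length used, since its exon union is 41155 bases and its longest transcript 23279. Both lengths are 6384 bases for Evpl.

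The substrates welded into the envelope moved in both directions. Of 45 substrate genes tested in wild type 31 were called higher in epidermis and 10 lower, beside 32% and 31.6% of all genes, and 32 and 10 of 46 in the knockout, beside 32.7% and 31.1%. The members' own counts read against the same shares. Lce1m, a late cornified envelope gene (log2 fold change 12.3 in wild type, 11.9 in the knockout), Flg2, a filaggrin relative (11.6 and 11.7), and Sprr2d, a small proline-rich protein gene with near-identical copies among which reads could be split (10.6 and 9.62), had the largest differences. Involucrin (Ivl, 8.02 and 8.34) and loricrin (Lor, 4.39 and 3.99) were higher in epidermis, and repetin (Rptn, -1.82 and -2.09) and Sprr3 (-6.78 and -6.88) higher in tongue. These 4 were chosen after their values were seen. The knockout called 0 of 47 substrates in epidermis and 0 of 40 in tongue by edgeR.

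**Figure D5:**
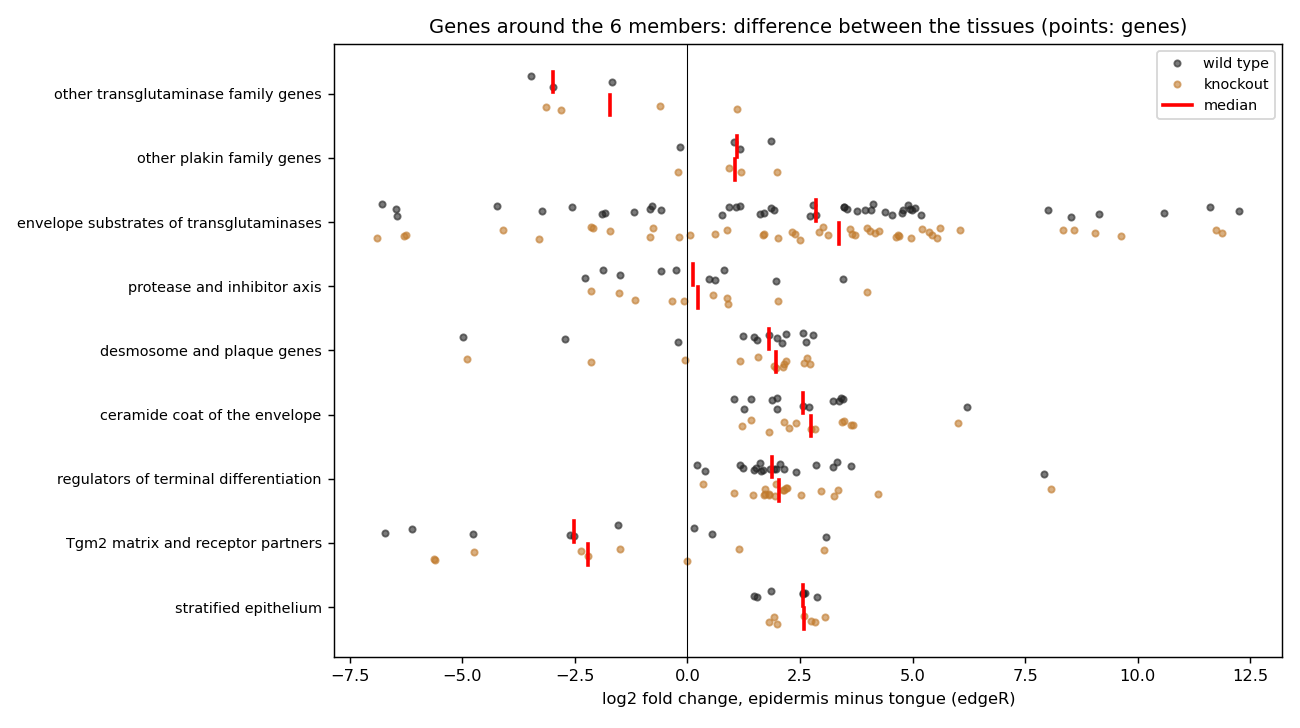
Log2 fold change of epidermis against tongue for each tested gene of 9 lists (points), with list medians as red lines, in wild type and knockout. Ceramide coat and regulator genes lie above 0 throughout, while the Tgm2 partners and the other transglutaminases lie mostly below.

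All 13 genes of the ceramide coat were called higher in epidermis in both genotypes, with medians of 2.58 and 2.75, beside 32% of all genes called higher in wild type and 32.7% in the knockout. They include Abca12, the lipid transporter of lamellar granules (3.46 in wild type), Sdr9c7, which acts on the linoleate of ceramides before they are bound to the envelope (3.42 and 3.68), Elovl1, a fatty acid elongase (3.64 in the knockout), and Fa2h, a fatty acid hydroxylase (6.20 and 6.0). Of 20 regulators of terminal differentiation 18 were called higher in wild type and 19 in the knockout, led by the transcription factor Gata3 (7.91 and 8.08), with Fosl1 (3.63 and 4.24), Tfap2a (3.32 in wild type) and Cebpa (3.35 in the knockout). Of 13 desmosome genes 10 were called higher and 2 lower in each genotype, where 31.6% of all genes were called lower in wild type and 31.1% in the knockout. Dsg2 (2.78 and 2.67) and Dsc1 (2.72 in the knockout) were among the higher, and Dsc2 (-4.98 and -4.89) and Pkp2 (-2.72 in wild type) among the lower.

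Of 10 genes for the proteases that process transglutaminases and their inhibitors 4 were called higher and 4 lower in wild type, and 5 and 3 in the knockout. Of all genes 32% were called higher and 31.6% lower in wild type and 32.7% and 31.1% in the knockout, so these counts lie near the background. Cst6, cystatin M/E, an inhibitor of the cathepsins that process Tgm3, was higher in epidermis (3.46 and 3.98), as was the proprotein convertase Furin (1.97 and 2.01), and Capns1, the small calpain subunit, was lower (-2.27 and -2.15). Of 9 matrix and receptor partners of Tgm2, 6 were called lower in epidermis in each genotype, beside 31.6% and 31.1% of all genes, with medians of -2.52 and -2.20. In wild type 1 was called higher and in the knockout 2. Lox, the other matrix crosslinking enzyme (-6.71 and -5.61), Pdgfrb, a receptor of pericytes and fibroblasts (-6.12 and -5.64), and the integrin Itgb3 (-4.76 and -4.73) had the largest differences among them. In the knockout comparisons 0 genes of these lists were called in either tissue by edgeR.

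As a description of likeness, each member was correlated with 11345 genes of at least 5 CPM on average, on log2(CPM + 0.5) over the 15 libraries. Over all libraries, where the tissue difference sets most of the pattern, the nearest genes were Tyro3, Psapl1 and Ank for Tgm1 (Pearson r 0.996 to 0.992). They were Actn3, Ak1 and Tmod1 for Tgm2 (0.998 to 0.997), all genes of high level in skeletal muscle. For Evpl they included Zbtb7a (0.993) and Fasn (0.990), and for Ppl Fhdc1, Trpv3 and Ccdc120 (all 0.994). For Tgm5 they were Pdzk1ip1, Ttc22 and Mospd2 (0.958 to 0.955), and for Tgm3 Sema3d, Selenot and Pla2g16 (0.914 to 0.903), the weakest match.

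With each of the 4 groups centred on its own mean the nearest genes were Tyro3, Psapl1 and Fam43a for Tgm1 (0.942 to 0.911). They were Ak1, Rtel1 and Actn3 for Tgm2 (0.949 to 0.939), Abhd12, Naaa and Tspyl4 for Tgm3 (0.956 to 0.939) and Ap1m2, Kyat1 and Def8 for Tgm5 (0.943 to 0.932). For Evpl they were Por, Zbtb7a and Adamts9 (0.983 to 0.95) and for Ppl Pcdh1, Trpv3 and Wwc1 (0.972 to 0.932). Among the members themselves the centred r was highest for Tgm1 with Evpl (0.831), Tgm5 (0.754) and Tgm3 (0.731), and it was 0.618 for Evpl with Ppl. Tgm2 had centred r from -0.58 (Tgm3) to -0.00254 (Tgm5) with the others. All values share the 15 libraries, their depth and the share of reads taken by mitochondrial ribosomal RNA.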

How the data were processed

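The authors deposited a table of raw read counts per gene for all 15 libraries, and a TMM-scaled signal table in CPM units, which was used for gene symbols. Per the labels' protocols, cDNA came from the SMARTer V4 kit and libraries from the TruSeq v2 kit. The submitters' processing notes name STAR 2.5.2a and the mouse build GRCm38.p3. Which counter, strand setting and annotation were used is not given in the sources used here. Members and gene lists were chosen with earlier results of these data known.

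Each comparison was fitted on its own libraries, over all genes, with edgeR 4.0.16 (R 4.3.3): low counts filtered at a minimum of 10, TMM factors, robust quasi-likelihood F test, two-sided, Benjamini-Hochberg threshold 0.05. CPM use TMM over the 15 libraries, and CPM per kb the exon union of GENCODE M21. Ratios and shares were compared with exact permutation tests (scipy 1.17.1). The fits were also run on simulated counts with the same dispersion for every gene and no effect of animal. Those settings are simpler than these libraries, so that run is not used as support for any call. DESeq2 1.42.0, limma 3.58.1 and left-out libraries were alternatives.

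Named beside the 6 members were all other transglutaminases and plakins. From each further list they were up to 3 called genes with the largest change and at least 1 CPM (where none was called, the 2 of highest level), and the 3 nearest genes of each member, of which 1 is not reported here. Listed genes without a row (Cd207, Eppk1, Sprr2a1, Tmprss11c) were not analysed here. Libraries with the same title number deviated together in epidermis with r of 0.46, -0.03 and 0.46. In tongue r was 0.63, 0.07, -0.23 and 0.27. These mixed values do not settle whether the numbers pair genotypes, and the main fits used no such pairing. Across genotypes, libraries of the same range of animal numbers had r of 0.02 to 0.46 in epidermis and -0.23 to 0.63 in tongue. Those of different ranges had r of -0.46 to 0.03 in epidermis and -0.42 to 0.32 in tongue. Tissues were paired by the number read as the animal. The labels do not say outright that libraries of a group came from separate animals, and p-values then measure only the spread between these samples, which may be technical.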

Additional observations from a re-analysis of the deposited data

Results flagged for a closer look

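Samples far from the others of their group were sought in 51 groups of 4 libraries, over 17 measures of the members, and chance alone flags about 1 in 20. In 2 groups a library stood apart. Tgm1 in knockout epidermis 2 was at 365 CPM, while the other 3 libraries of the group lay between 221 and 243 CPM. Tgm3 relative to the stratified epithelium genes in knockout tongue 3 was at -1.06 on the log2 scale, while the other 3 lay between -0.30 and -0.15. That tongue library also had the highest Evpl CPM of its group, 132, and the highest log2 ratio of Evpl to Ppl, -1.25.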

How the results depend on the processing

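Tgm1, Tgm5, Evpl and Ppl were called higher and Tgm2 lower in epidermis under every alternative run in both genotypes (17 in wild type, 18 in the knockout). Tgm3 was not called in wild type under any, and its call in the knockout held under 10 of 18. No knockout comparison called a member under any alternative, and no exact test of shares, ratios and levels relative to epithelium genes passed, which the group sizes do not allow. The knockout values of the members lie near 0 and many changed sign. Log2 values follow, and the cause of these changes was not tested.

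Genes called in epidermis, knockout against wild type, were 1 with DESeq2, with all 15 libraries in 1 fit and with the range of animal numbers as a block, and 604 within the animals of the higher number range alone (wild-type epidermis 2 and 3 and replicates 3 and 4 of the other groups). In tongue they were 4 with DESeq2 and 15 within those animals. For the difference of the knockout effects they were 1 with DESeq2, 19 within those animals and 0 to 1 without single libraries (1 without knockout epidermis 1). With the range block the epidermis value was -0.063 for Tgm1 and -0.070 for Tgm2. Within the higher number range it was -0.23 for Tgm1, -0.15 for Tgm5 and -0.21 for Evpl, the tongue value of Tgm3 was -0.089, and the difference of effects was -0.23 for Tgm2, -0.28 for Tgm5 and -0.20 for Ppl. That difference was -0.032 for Tgm2 with DESeq2, and -0.00197 for Tgm2 and -0.013 for Tgm5 with no filter on low counts. With the animal as a replicate block it was -0.079 for Tgm5 and -0.24 for Ppl. The replicate block changed no call of a member other than Tgm3 between the knockout tissues, where the log2 value was -0.66.

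Without single libraries the epidermis knockout values ran from -0.10 to 0.22 (Tgm1), -0.14 to 0.89 (Tgm2), -0.47 to 0.056 (Tgm3) and -0.020 to 0.34 (Tgm5). Those of tongue ran from -0.10 to 0.18 (Tgm3) and -0.027 to 0.42 (Ppl). The differences of effects ran from -0.23 to 0.12 (Tgm1), -0.28 to 0.61 (Tgm2), -0.48 to 0.057 (Tgm3), -0.16 to 0.21 (Tgm5), -0.35 to 0.23 (Evpl) and -0.16 to 0.28 (Ppl). The difference of the log2 ratio of Evpl to Ppl ran from -0.24 to 0.32 for the knockout in epidermis, -0.24 to 0.32 for the tissues in wild type and -0.25 to 0.076 for the tissues in the knockout. Within the higher number range the difference of its medians was -0.45 for the knockout in epidermis and -0.58 for the tissues in the knockout. Relative to epithelium genes the wild-type tissue difference ran from -0.035 to 0.22 for Evpl and from -0.32 to 0.23 for Ppl without single libraries. It was 0.067 for Tgm1 without Krt5 and Krt14, and -0.48 for Evpl and -0.52 for Ppl against those 2 alone. For Ppl in the knockout it was 0.030 without them.

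Depth limits Tgm2 in epidermis most, at 7 to 26 reads a library. The smallest adjusted p the exact tests allow with all libraries is 0.0571.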
